A study of Mus musculus with 6 samples.

Results

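The genes described here are those of serine-threonine kinase families, the PPP phosphatases with their subunits, and the calmodulin genes. The kinase families are CaM kinase, PKA, PKC, AMPK, MAP kinase, CDK, casein kinase, GSK3 and AKT. Subunits, scaffolds, partners and inhibitors named after a kinase family are counted in it. All genes were chosen by symbol. The rule holds no measured value, but it was written, with the genes it leaves out, when earlier results of these data were known. Of the 5538 genes in the deposited table, 109 symbols matched, 4 of these (Ppp1r14b, Mapkap1, Mapkapk2 and Mapkapk5) were left out by the rule, and 105 remained in 18 families. In 7 of the 105 the match is one of spelling, since genes such as Prkra and Camkmt encode proteins that are not kinases of the family their symbol begins with. These 7 were kept as a family of their own. No value of the table is below 7 TPM, so a gene below that level in any library has no value here, and Camk2a and Camk2g were not analysed here.

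RNA came from the perioculomotor (pIII) region of C57BL/6 mice, the midbrain tissue around the oculomotor nucleus. All mice carried CreER under the Fos promoter and a Cre-inducible eGFP-L10a reporter, so that a cell with an active Fos promoter while 4-OHT is present makes a tagged ribosomal protein. All went through 6 hr of sleep deprivation and 3 hr of recovery sleep, and 4-OHT was given just before either phase. The 3 IP libraries hold RNA pulled down with antibodies against eGFP, the 3 Input libraries are read here as RNA of the same kind of tissue without that step, and each repeat pooled 4 to 5 mice (the sources used here give no age). Series text speaks of neurons labelled in recovery sleep, but the single libraries are labelled only IP or Input with a number. Any cell type that switches on Fos can carry the tag, and the Input contains the tagged cells too. Differences between groups are therefore differences between a pulled-down RNA pool and the tissue around it, and fewer cells of a type cannot be told apart from less RNA per cell.

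Reversible phosphorylation of serine and threonine is one of the main ways in which neurons turn calcium, cyclic AMP and growth factor signals into changes at synapses and in the nucleus. Calmodulin binds calcium and then activates CaM kinases and the phosphatase calcineurin, cyclic AMP frees the catalytic subunits of PKA from their regulatory subunits, and MAP kinases sit at the end of a chain in which a MAP3K activates a MAP2K and that a MAP kinase. PP1 and PP2A remove most of these phosphates, with a few catalytic subunits directed by many regulatory ones. Calmodulin, CaMKII and calcineurin are abundant in brain and are known for their part in synaptic plasticity.

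TPM are scaled for transcript length, so levels can be set beside each other between genes, but only roughly. Over all genes, the departure of IP 1 from the other IP libraries still correlated with transcript length at r = -0.48, and that of IP 2 at 0.50. Calm2, with a mean of 2155 TPM, and Calm3, with 432 TPM, make the same protein from different messenger RNAs. Their first 90 coding bases are shown because the levels below are given for each gene, which needs sequence that tells the messages apart. Capitals mark the bases at which Calm2 and Calm3 differ. Calm2 lies at chr17:87433412-87446935 and Calm3 at chr7:16915379-16924114, both on the minus strand, in GRCm38 (mm10) with GENCODE vM21 gene models, and each stretch is written 5′ to 3′ along the coding strand.
Calm2: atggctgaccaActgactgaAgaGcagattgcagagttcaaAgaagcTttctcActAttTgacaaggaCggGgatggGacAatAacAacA
Calm3: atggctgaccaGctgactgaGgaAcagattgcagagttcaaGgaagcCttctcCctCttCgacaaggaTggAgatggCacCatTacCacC
In this stretch 15 of the 90 bases differ. Over the whole coding sequence of 450 bases, 78 bases differ and 74 of these are at the third position of a codon, so that 82.7% of the bases are equal. Translated, both sequences give the same 149 amino acids. The longest run of coding bases that Calm2 and Calm3 share is 17.

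IP 1 and Input 3 stood apart from the libraries of their own label. On the log2(TPM + 1) scale over the 105 members, IP 2 and IP 3 correlated at r = 0.972 and Inputs 1 and 2 at r = 0.970, while Input 3 correlated with the other 5 libraries at between 0.719 and 0.777 and IP 1 with the other IP libraries at 0.884 and 0.896. These are correlations across genes, which share their library and are not independent replicates. The median gene of the table stood at 27.7, 56.5 and 51.0 TPM in IP 1, 2 and 3 and at 64.3, 67.2 and 31.1 TPM in Inputs 1, 2 and 3. In Input 3, 15 members (14.3%) lay more than 1 log2 unit below both other Inputs and 8 (7.62%) lay that far above, once each library was set on its median gene, beside 9.52% and 8.49% of all genes. In IP 1, 12 members (11.4%) lay that far below both other IP libraries and 2 (1.90%) above, where all genes were more often above (10.6%) than below (3.88%). In each of the other 4 libraries at most 1 member did so in either direction. Each difference below is therefore on log2(TPM + 1) after subtracting the library's median gene, is called the relative log2 difference of IP from Input, and is given for all 6 libraries with its standard error (SE) and, for the named genes, again without IP 1 and Input 3, called the second reading.

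No member passed the test between IP and Input, as no gene of the table did. limma called 0 of the 105 members at an adjusted p of 0.05, against 0.0% of all genes, with a smallest adjusted p of 0.649 both over all genes and among the members. At an unadjusted p of 0.05, 4 members lay higher in IP (Ppp1r12c, Mapk14, Map2k2 and Cdk16), beside 3.58% of all genes, and 3 lower (Ppp1r2, Map2k1 and Ppp3r1), beside 3.85%. The median relative difference of the members was -0.04, with quartiles of -0.30 and 0.31, and that of all genes was 0.02, with quartiles of -0.28 and 0.32. In all, 49 members lay above 0 (51.8% of all genes did) and 56 below (48.2% of all genes). The median SE of a member was 0.32, so a difference of that size is within the error of a typical member.

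**Figure D1:**
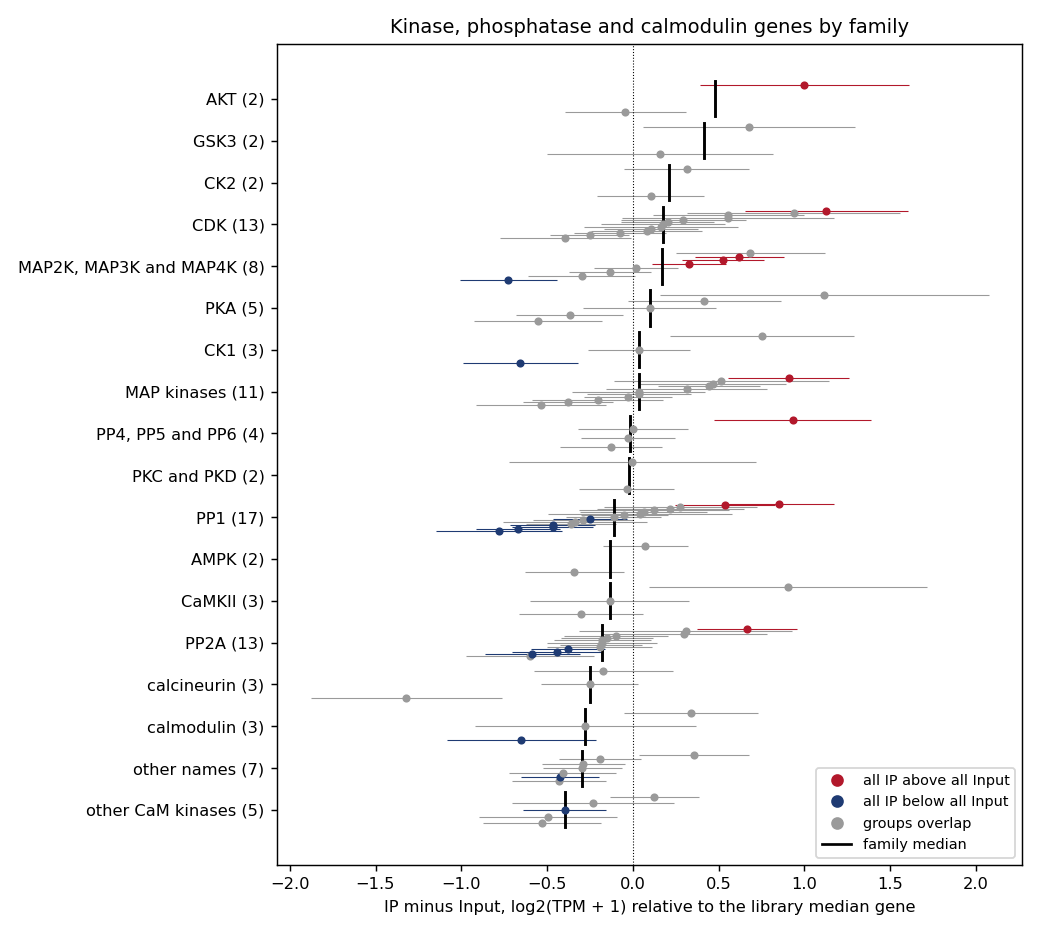
Relative log2 difference of IP from Input for each of the 105 members (points), with its SE (bars), arranged by family with the number of members in brackets; the black stroke is the family median and colours mark members whose 3 IP libraries all lie above or all below the 3 Inputs. Family medians run from -0.40 in the other CaM kinases to 0.48 in AKT, and single members from -1.32 (Ppp3r1) to 1.13 (Cdk16).

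Calm2, a gene of the calcium sensor calmodulin, stood at 762, 1975 and 2060 TPM in IP 1, 2 and 3 and at 2658, 2745 and 2733 TPM in Inputs 1, 2 and 3. In TPM, IP 1 is the lowest of the 6 libraries and all 3 Inputs are level. The median gene was at 31.1 TPM in Input 3 against 64.3 and 67.2 TPM in Inputs 1 and 2. Relative to the median gene, Calm2 was therefore highest in Input 3 and lowest in IP 1. The relative difference of Calm2 was -0.65 (SE 0.43, adjusted p = 0.726), and its 3 IP values, relative to the median gene, all lay below the 3 Inputs. Without IP 1 and Input 3 the difference was -0.13. Calm3 varied more among libraries of one group, with 369, 180 and 417 TPM in IP and 1072, 306 and 250 TPM in Input, and differed by -0.28 (SE 0.65). Without those libraries it lay at -0.77 (SE 0.58, adjusted p = 0.445), the lowest of all members in that reading. Over the calmodulin family, the median of calmodulin was -0.28, or -0.13 without IP 1 and Input 3. With single libraries left out its sign changed, to 0.21 without Input 1 and 0.29 without IP 2.

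Among the kinases that calmodulin activates, CaMKII is a large holoenzyme built from several subunit types. Camk2b, a CaMKII subunit known from neurons, stood at 39.8, 215 and 172 TPM in the IP libraries and at 250, 228 and 57.5 TPM in the Inputs. Camk2d, a more widely expressed subunit, had 11.8, 57.9 and 48.4 TPM in IP and 65.7, 68.6 and 24.0 TPM in Input. Both are low in IP 1 and Input 3 and similar in the other 4 libraries, and their relative differences were -0.13 (SE 0.46) and -0.30 (SE 0.36), or -0.02 and -0.05 without IP 1 and Input 3. Camk2b made up between 77.1% and 78.8% of the pair in IP and between 70.5% and 79.2% in Input. Camk2n2, which encodes an inhibitor of CaMKII, gave 87.1, 116 and 93.2 TPM in IP and 189, 140 and 8.25 TPM in Input. Input 3 is far below the other 5 libraries, and the difference of 0.91 (SE 0.81) over all 6 was -0.35 (SE 0.22, adjusted p = 0.362) without IP 1 and Input 3.

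The 5 other CaM kinase genes had the lowest family median, -0.40, with 4 of 5 below 0. The median was -0.22 without IP 1 and Input 3, with 4 of 5 below, though not the same 4 genes. Camk1, a monomeric CaM kinase, had 64.9, 146 and 142 TPM in IP and 197, 258 and 102 TPM in Input, a relative difference of -0.40 (SE 0.24, adjusted p = 0.704), or -0.36 in the second reading. Every IP library of Camk1 lay below every Input once set on its median gene, while its exons overlap those of Ogg1 on the other strand and nothing states whether the counting used strand. Camkk1, one of the kinases that activate Camk1, differed by 0.13 (SE 0.26) with between 35.3 and 71.2 TPM in IP and between 27.7 and 85.2 TPM in Input. Camkv, a vesicle-associated protein that resembles a CaM kinase, differed by -0.53 (SE 0.34), with 8.90 TPM in IP 1 against 42.8 and 37.3 TPM in the other IP libraries. Camkk1 lay at -0.06 and Camkv at -0.22 once IP 1 and Input 3 were left out.

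Calcineurin is the phosphatase that calmodulin activates, made of a catalytic subunit and the calcium-binding subunit Ppp3r1. Ppp3r1 had the lowest relative difference of all 105 members. It stood at 15.3, 96.5 and 114 TPM in IP and at 232, 138 and 147 TPM in Input. Relative to the median gene the groups overlap, since IP 3 lay above Input 2. The difference was -1.32 (SE 0.56, unadjusted p = 0.0475, adjusted p = 0.649), and -0.47 (SE 0.28, adjusted p = 0.341) without IP 1 and Input 3. Its exons overlap those of Wdr92 on the same strand, which can split reads between these genes. Of the catalytic subunits, Ppp3ca differed by -0.17 (SE 0.41), from 32.3, 154 and 126 TPM in IP and 176, 178 and 47.9 TPM in Input, and Ppp3cb by -0.25 (SE 0.28). They lay at -0.06 and 0.00 without IP 1 and Input 3. Ppp3ca made up between 78.9% and 87.1% of the catalytic pair in IP and between 73.6% and 85.9% in Input.

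PP1 was the largest family, with 3 catalytic subunits and 14 regulatory subunits. Ppp1cc had 135, 289 and 287 TPM in IP and 260, 289 and 80.5 TPM in Input. Ppp1ca had 132, 227 and 248 TPM in IP and 396, 437 and 190 TPM in Input. Ppp1cb had 18.8, 72.3 and 91.1 TPM in IP and 124, 124 and 71.1 TPM in Input. Relative to the median gene, every IP library lay above every Input for Ppp1cc (6.93% of all genes did so) and below every Input for Ppp1ca and Ppp1cb (9.71% of all genes). The differences were 0.54 (SE 0.29, adjusted p = 0.688) for Ppp1cc, -0.47 (SE 0.25, adjusted p = 0.688) for Ppp1ca and -0.78 (SE 0.37, adjusted p = 0.663) for Ppp1cb. They were 0.36, -0.52 and -0.32 without IP 1 and Input 3.

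A share within a library does not depend on how libraries are scaled to each other. Ppp1cc made up 47.2%, 49.1% and 45.8% of the summed PP1 catalytic TPM in IP and 33.4%, 34.0% and 23.5% in Input, a mean of 47.4% ± 1.67 (SD, n = 3 libraries) against 30.3% ± 5.85. The 2 groups do not overlap and differ by 17.1 percentage points, or 13.8 points without IP 1 and Input 3. Ppp1ca made up 46.2%, 38.6% and 39.6% in IP and 50.8%, 51.4% and 55.6% in Input, a difference of -11.1 points, or -12.0 without those libraries. Ppp1cb made up 6.57%, 12.3% and 14.5% in IP and 15.9%, 14.6% and 20.8% in Input, and this difference shrank from -5.97 to -1.83 points. Each of these shares reached an exact two-sided permutation p of 0.1, the smallest that 3 libraries against 3 can give, and a Benjamini-Hochberg adjusted 0.467 over the 14 shares tested. The 3 shares are parts of the same sum in each library, so they are not independent results. The other 11 shares overlapped between the groups, with an exact permutation p between 0.2 and 0.9. Ppp1ca and Ppp1cc share a run of 44 identical transcript bases and Ppp1ca overlaps Rad9a on the other strand, so part of the reads of these genes could be assigned to a neighbour or a paralog.

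**Figure D2:**
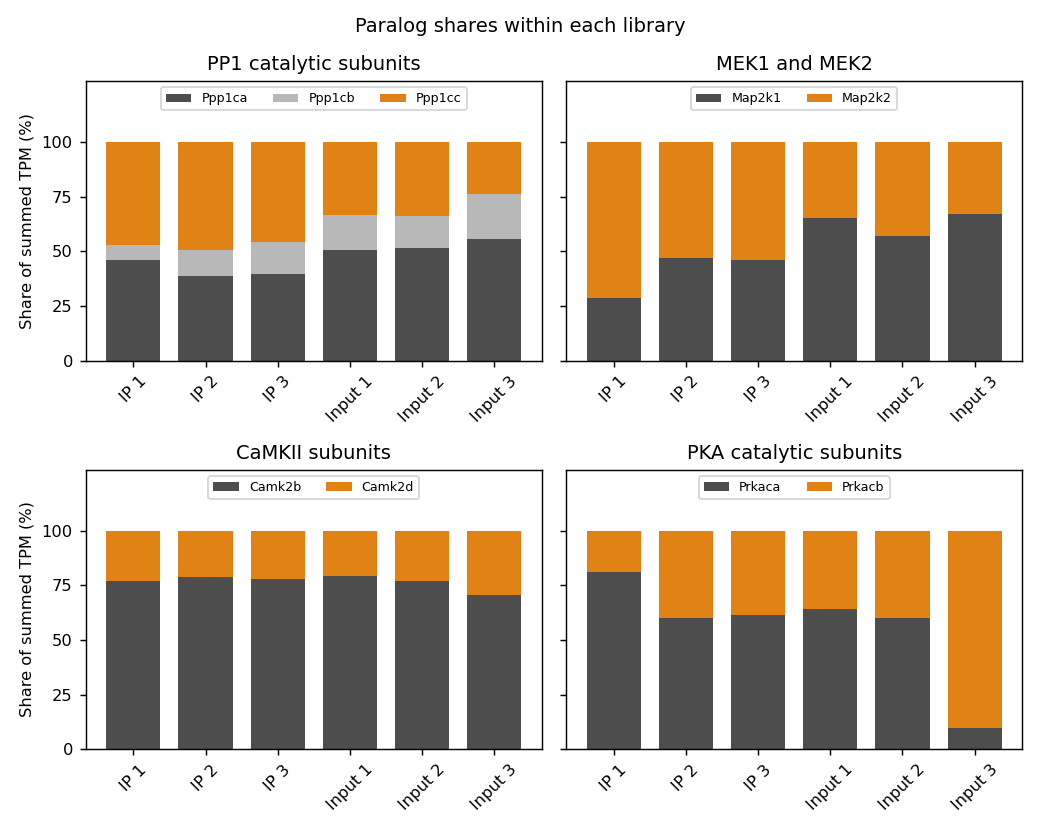
Share of each gene in the summed TPM of its paralogs, in percent, in each of the 6 libraries (stacked bars), for the PP1 catalytic subunits, MEK1 and MEK2, the CaMKII subunits and the PKA catalytic subunits. Ppp1cc takes 45.8% or more in every IP library and 34.0% or less in every Input, and Map2k2 takes 53.1% or more in IP and 42.9% or less in Input, while the share of Camk2b lies between 70.5% and 79.2% in all 6 libraries and that of Prkaca departs in IP 1 and Input 3.

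Regulatory subunits of PP1 went both ways. Ppp1r12c, a myosin phosphatase targeting subunit, had 142, 162 and 129 TPM in IP and 106, 130 and 59.7 TPM in Input. Its relative difference was 0.85 (SE 0.32, unadjusted p = 0.0299, adjusted p = 0.649), and 0.59 (SE 0.19, adjusted p = 0.114) without IP 1 and Input 3. All IP libraries lay above all Inputs relative to the median gene. Ppp1r2, known as inhibitor-2 of PP1, had 23.3, 53.5 and 59.5 TPM in IP and 90.9, 99.2 and 57.1 TPM in Input, with all IP libraries below all Inputs. It differed by -0.67 (SE 0.24, unadjusted p = 0.0268, adjusted p = 0.649), and by -0.45 without IP 1 and Input 3. Ppp1r11, another inhibitor, differed by 0.13 (SE 0.44) from 222, 143 and 185 TPM in IP and 300.0, 226 and 111 TPM in Input, and by -0.39 in the second reading. Ppp1r21 differed by -0.47 (SE 0.24), or -0.39 in that reading. Over the 17 genes, 7 lay above 0 and 10 below, with a median of -0.11, and 7 and 10 without those libraries.

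PP2A is a trimer of scaffold, catalytic and regulatory subunits, and 10 of its 13 genes lay below 0. The scaffold Ppp2r1a, one of the most abundant members, had 216, 610 and 591 TPM in IP and 832, 761 and 308 TPM in Input, a relative difference of -0.19 (SE 0.31), or -0.12 without IP 1 and Input 3. Ppp2cb, the catalytic subunit with a value here, had 64.7, 105 and 106 TPM in IP and 188, 144 and 23.3 TPM in Input. It was chosen here after its values were seen, and its difference of 0.30 (SE 0.49) became -0.35 without IP 1 and Input 3. Of the regulatory subunits, Ppp2r2b had 56.2, 126 and 116 TPM in IP and 164, 179 and 120 TPM in Input and differed by -0.44 (SE 0.26), or -0.21 in the second reading, with all IP below all Input over 6 libraries. Ppp2r5b differed by -0.15 (SE 0.27) and Ppp2r2a by -0.60 (SE 0.37), or by 0.05 and -0.26 in that reading. Ppp2r3c differed by -0.59 (SE 0.28), or -0.49 there, from 10.01, 14.9 and 18.7 TPM in IP and 31.2, 27.5 and 20.3 TPM in Input. Ppp2r5a went the other way, with 26.0, 29.5 and 27.2 TPM in IP and 23.1, 30.0 and 11.9 TPM in Input and a difference of 0.67 (SE 0.29, adjusted p = 0.649), or 0.39 in the second reading. The family median was -0.18, and -0.26 with 11 of 13 below 0 when IP 1 and Input 3 were left out. No gene of the family passed the test in either reading.

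The related phosphatases PP4, PP5 and PP6 had 4 genes with values. Ppp4c, the PP4 catalytic subunit, was level, with 78.2, 98.8 and 86.5 TPM in IP, 111, 114 and 87.7 TPM in Input and a relative difference of 0.00 (SE 0.32), the same in both readings. Ppp5c differed by -0.13 (SE 0.30), and by 0.20 without IP 1 and Input 3. Ppp6r1, a regulatory subunit of PP6, had 34.3, 81.7 and 56.8 TPM in IP and 63.2, 62.8 and 8.87 TPM in Input. The difference of 0.93 (SE 0.46, adjusted p = 0.668) was 0.40 (SE 0.20, adjusted p = 0.273) without IP 1 and Input 3, and all IP libraries lay above all Inputs.

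Of the PKA genes, the regulatory subunits Prkar1b and Prkar1a were among the most abundant members, with means of 781 and 444 TPM. Prkar1b had 335, 909 and 872 TPM in IP and 1195, 1102 and 273 TPM in Input, and differed by 0.10 (SE 0.39). Prkar1a had 165, 467 and 476 TPM in IP and 575, 598 and 384 TPM in Input, and differed by -0.37 (SE 0.31). They lay at -0.08 and -0.03 without IP 1 and Input 3, within the SE of 0.18 of each. Prkar2a, a regulatory subunit of the type that anchoring proteins tether, had 27.5, 45.4 and 45.8 TPM in IP and 28.9, 31.2 and 44.1 TPM in Input. In IP 2 and IP 3 it stood above Inputs 1 and 2 although the median gene was lower there, while Input 3 was the highest of the 6 relative to the median gene. The difference over all libraries was 0.42 (SE 0.45, adjusted p = 0.797).

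The catalytic subunits of PKA carry out its phosphorylation. Prkaca had 130, 229 and 190 TPM in IP and 344, 254 and 9.60 TPM in Input. Prkacb had 29.8, 152 and 118 TPM in IP and 190, 169 and 89.9 TPM in Input. Input 3 had the lowest Prkaca of the 6 libraries by a wide margin and IP 1 the lowest Prkacb. Prkaca differed by 1.12 (SE 0.96) over all libraries and by -0.22 (SE 0.21, adjusted p = 0.567) without IP 1 and Input 3, and Prkacb by -0.55 (SE 0.37) and -0.13. Prkaca took 60.1% and 61.6% of the catalytic pair in IP 2 and IP 3 and 64.4% and 60.1% in Inputs 1 and 2, but 81.3% in IP 1 and 9.65% in Input 3. The exact permutation p of that share was 0.4.

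PKC and AMPK were each represented by a pair of genes. Prkcz, an atypical PKC, had 86.2, 159 and 136 TPM in IP and 153, 178 and 124 TPM in Input and differed by -0.04 (SE 0.28). Prkcb, a calcium-dependent PKC, had 17.2, 116 and 101 TPM in IP and 158, 148 and 14.4 TPM in Input, and differed by 0.00 (SE 0.72) in an average over libraries that lie far apart. The AMPK regulatory subunits Prkag1 and Prkag2, which sense the energy charge of the cell, differed by 0.07 (SE 0.25) and -0.34 (SE 0.29). These 4 genes lay between -0.21 and 0.12 without IP 1 and Input 3, each with an adjusted p of 0.514 or more.

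In the MAP kinase cascade, Map2k1 and Map2k2 lay on opposite sides of 0. Map2k1, which encodes MEK1, had 47.5, 152 and 144 TPM in IP and 264, 238 and 127 TPM in Input. Map2k2, which encodes MEK2, had 118, 171 and 170 TPM in IP and 141, 179 and 62.4 TPM in Input. Relative to the median gene all IP libraries lay below all Inputs for Map2k1 and above all Inputs for Map2k2. Map2k1 differed by -0.73 (SE 0.28, unadjusted p = 0.0366, adjusted p = 0.649) and Map2k2 by 0.62 (SE 0.26, unadjusted p = 0.0469, adjusted p = 0.649). The differences were -0.47 (adjusted p = 0.169) and 0.39 (adjusted p = 0.257) without IP 1 and Input 3. Within each library the ratio of Map2k2 to Map2k1 was 2.49, 1.13 and 1.18 in IP and 0.534, 0.751 and 0.490 in Input. MEK2 messages thus outnumbered MEK1 messages in each IP library and were outnumbered in each Input. The mean ratio on a log scale was 2.57 times as high in IP, and 1.82 times as high without IP 1 and Input 3. This ratio was chosen after its values were seen and is given with no test. The genes share a run of 56 identical transcript bases, the longest of the 11 paralog pairs compared. Map2k4, an activator of JNK, differed by -0.30 (SE 0.31), from 50.9, 182 and 160 TPM in IP and 214, 184 and 119 TPM in Input, and by 0.07 without IP 1 and Input 3.

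Among the MAP kinases themselves, Mapk10, the neuronal JNK, had 100.5, 219 and 210 TPM in IP and 241, 227 and 150 TPM in Input and differed by -0.03 (SE 0.26), or 0.17 without IP 1 and Input 3. Mapk14, which encodes a p38 kinase, had 19.4, 52.0 and 34.2 TPM in IP and 27.2, 40.6 and 7.18 TPM in Input, with all IP above all Input relative to the median gene. Its difference was 0.91 (SE 0.35, unadjusted p = 0.0349, adjusted p = 0.649), and 0.62 (SE 0.25, adjusted p = 0.179) without those libraries.

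JNK scaffolds hold the kinases of a cascade together and link them to kinesin. Mapk8ip2 had 20.04, 129 and 88.8 TPM in IP and 60.6, 80.5 and 29.9 TPM in Input, with IP 2 and IP 3 the highest of the 6. Mapk8ip3 had 64.9, 235 and 165 TPM in IP and 144, 136 and 85.2 TPM in Input, again with IP 2 and IP 3 highest. Over all libraries Mapk8ip2 differed by 0.47 (SE 0.42, adjusted p = 0.767) and Mapk8ip3 by 0.44 (SE 0.30, adjusted p = 0.726), and the groups overlapped, with IP 1 low. The other scaffold, Mapk8ip1, named after its values were seen, had 40.3, 80.6 and 64.8 TPM in IP and 114, 102 and 27.8 TPM in Input. It differed by 0.03 (SE 0.30), and by -0.29 without IP 1 and Input 3. All 3 scaffold genes thus lay above 0 over the 6 libraries. They parted only without IP 1 and Input 3, where Mapk8ip2 lay at 0.90 and Mapk8ip3 at 0.78. The exons of Mapk8ip3 overlap those of Eme2 on the same strand and of Mrps34 and Nme3 on the other.

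The CDK family as sorted here holds 13 genes: 8 kinases, 3 activators or partners of CDKs and 2 CDK inhibitors. Of the 13, 10 lay above 0, with a median of 0.18, and 6 of the 8 kinases did. Without IP 1 and Input 3, 8 of 13 lay above 0, with a median of 0.06. Cdk5, the CDK of postmitotic neurons, was the most abundant, with 157, 208 and 205 TPM in IP, 253, 254 and 140 TPM in Input and a difference of 0.11 (SE 0.27), or -0.01 in the second reading. Cdk16, a kinase of the PCTAIRE group found in brain, had the highest relative difference of all members. It stood at 109, 242 and 202 TPM in IP and at 160, 199.6 and 25.7 TPM in Input, with all IP above all Input relative to the median gene. Its difference was 1.13 (SE 0.48, unadjusted p = 0.0481, adjusted p = 0.649), and 0.59 (SE 0.19, adjusted p = 0.105) without IP 1 and Input 3. Cdk2ap1, a binding partner of CDK2, differed by 0.94 (SE 0.62) from 126, 149 and 154 TPM in IP and 157, 226 and 18.4 TPM in Input, and by -0.03 without those libraries.

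Several casein kinase, GSK3 and AKT genes had their lowest value in Input 3. Csnk1a1, a CK1 isoform, had 25.3, 92.4 and 94.7 TPM in IP and 129, 130 and 88.9 TPM in Input, with all IP below all Input, and differed by -0.66 (SE 0.34, adjusted p = 0.683) or -0.18 without IP 1 and Input 3. Csnk1d, a CK1 isoform that phosphorylates clock proteins, differed by 0.04 (SE 0.30), and Csnk1g2 by 0.76 (SE 0.54) with 15.5 TPM in Input 3. Without IP 1 and Input 3 they lay at 0.33 and -0.09. Csnk2b, the regulatory subunit of CK2, had 138, 206 and 190 TPM in IP and 305, 282 and 83.7 TPM in Input and differed by 0.11 (SE 0.31), and the catalytic Csnk2a1 by 0.31 (SE 0.36), or by -0.28 and 0.24 in the second reading. Gsk3a had 55.1, 102 and 94.4 TPM in IP and 142, 124 and 11.6 TPM in Input, and Gsk3b had 10.2, 48.7 and 62.9 TPM in IP and 79.5, 63.0 and 7.27 TPM in Input. These GSK3 genes differed by 0.68 (SE 0.62) and 0.16 (SE 0.66), and by -0.14 and -0.06 without IP 1 and Input 3. Akt1, the kinase that phosphorylates both, had 103, 209 and 164 TPM in IP and 182, 212 and 18.2 TPM in Input. It differed by 1.001 (SE 0.61, adjusted p = 0.705), with all IP above all Input, and by 0.20 (SE 0.19, adjusted p = 0.538) without those libraries. Akt2 differed by -0.04 (SE 0.35), or 0.24 in the second reading. The share of Akt1 in the AKT pair, chosen after its values were seen, lay between 83.7% and 87.3% in 5 libraries and at 37.6% in Input 3.

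**Figure D3:**
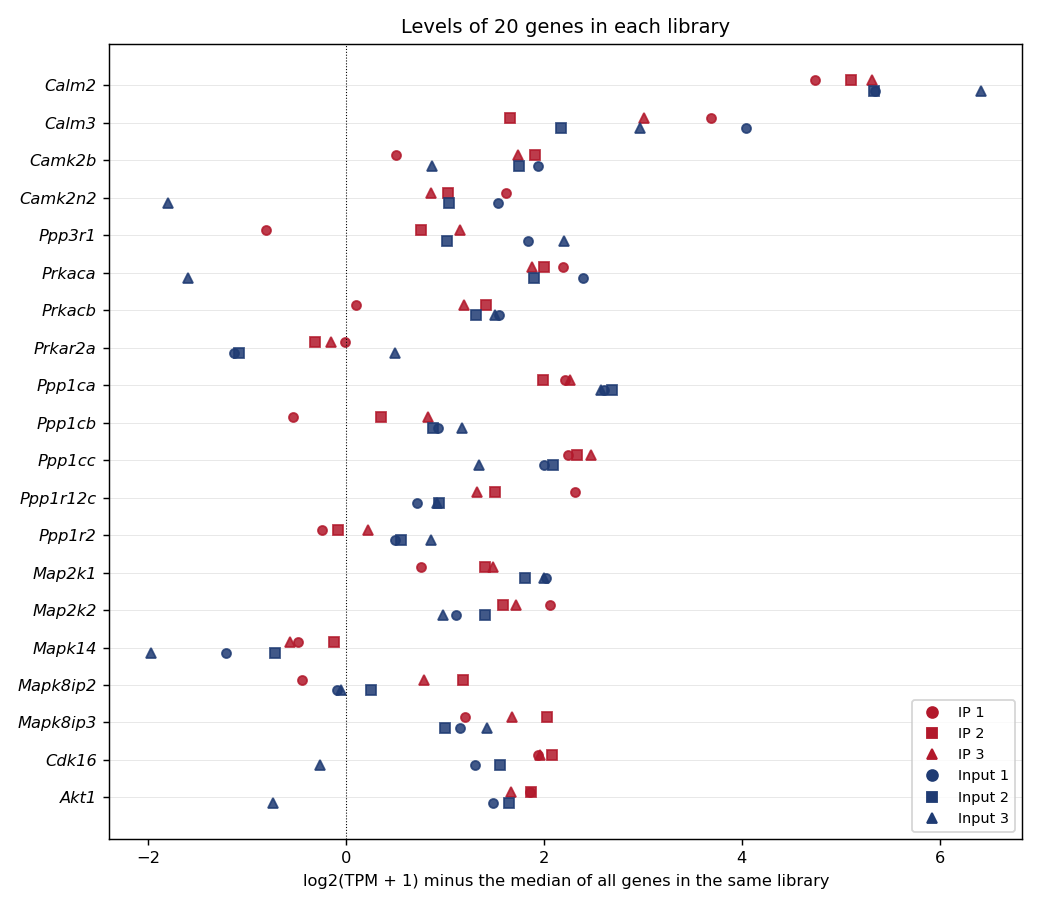
Level of 20 members in each library, as log2(TPM + 1) minus the median gene of that library, with IP libraries in red and Inputs in blue and a marker shape for each replicate number. Input 3 (blue triangles) lies far to the left for Prkaca, Camk2n2, Akt1 and Cdk16, and IP 1 (red circles) for Ppp3r1, Prkacb and Camk2b.

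The 7 genes matched by spelling lay mostly below 0, 6 of 7, with a median of -0.30. All 7 lay below, with a median of -0.28, without IP 1 and Input 3. Cdkn2aipnl, Prkrip1 and Mapk1ip1 were the most abundant of them and differed by -0.29, -0.30 and 0.36, with SE of 0.24, 0.23 and 0.32, and by -0.23, -0.31 and -0.04 in the second reading.

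Counted over the set, the 3 IP libraries all lay above the 3 Inputs in 10 members (9.52%), beside 6.93% of all genes, and all below in 13 members (12.4%), beside 9.71% of all genes. These shares are near those of all genes. The 8 largest of the first kind were Cdk16, Akt1, Ppp6r1, Mapk14, Ppp1r12c, Ppp2r5a, Map2k2 and Ppp1cc, and of the second kind Ppp1cb, Map2k1, Ppp1r2, Csnk1a1, Calm2, Ppp2r3c, Ppp1r21 and Ppp1ca. Without setting libraries on the median gene the counts were 0 members above, beside 1.7% of all genes, and 4 below, beside 6.21%.

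Without Input 3 alone, 16 genes of the table were called higher in IP (0.289%) and 1 lower (0.0181%), and 0 members in either direction. Leaving out IP 1 and Input 3, which were picked because they stood apart in these data, left 2 libraries a group that resembled each other, and limma then called 187 genes higher in IP (3.38%) and 160 lower (2.89%). Among the members, 2 rose and 0 fell. Mapk8ip2 was higher in IP by 0.90 (SE 0.22, adjusted p = 0.049), a fold of 1.86, and Prkar2a by 0.87 (SE 0.20, adjusted p = 0.0394), a fold of 1.83. Mapk8ip3 lay at 0.78 (SE 0.20, adjusted p = 0.0555), just outside the threshold. These calls rest on 2 libraries against 2, and in the libraries left out the order is not the same: Mapk8ip2 was lower in IP 1 than in each Input relative to the median gene, and Prkar2a was highest in Input 3. Without centring, 936 genes were called lower in IP (16.9%) and 121 higher (2.18%), and 11 members lower and 0 higher, with the median gene itself at -0.33. Of the genes named above, the 11 included Ppp1ca, Ppp1r2, Map2k1, Camk1 and Csnk2b. The median of the members relative to the median gene was -0.07, with 41 above 0 and 64 below, where 46.2% of all genes lay above. Both IP libraries lay above both Inputs in 24 members, beside 25.2% of all genes, and below in 32, beside 31.5%.

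Other genes of these pathways, taken from 8 lists of textbook genes, had no member past the threshold in either direction over the 6 libraries. The 14-3-3 proteins, which bind phosphorylated serine and threonine, had 6 of 7 genes with values, and all 6 lay below 0 with a median of -0.61, or -0.38 without IP 1 and Input 3. Genes of Ras, Raf and kinases downstream of MAP kinases, with 18 of 26 measured, had 12 above and 6 below and a median of 0.39, which was 0.02 without those libraries. Other serine-threonine kinases, with 24 of 71 measured, had 16 above and 8 below and a median of 0.35, or 0.15. Phosphatase inhibitors and partners (14 of 19) had a median of -0.15, or -0.18 without IP 1 and Input 3. PPM and dual-specificity phosphatases (13 of 31) had 0.12, or -0.11 without those libraries. PI3K, mTOR and S6 kinase genes (6 of 22) had 0.05, or 0.29. Kinase anchors and PKA inhibitors (6 of 17) had 0.00, or 0.22. Calmodulin-binding and PKC substrate proteins (6 of 10) had -0.36, or 0.005. The median over all genes was 0.02, or -0.04 without those libraries.

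When IP 1 and Input 3 were left out, 4 of the 93 measured genes of these lists rose and 5 fell, beside 3.38% and 2.89% of all genes, and they are named here after their values were seen. Pkia, a heat-stable inhibitor of PKA, was lower in IP by -1.20 (adjusted p = 0.00858) and Gap43, a calmodulin-binding growth cone protein that PKC phosphorylates, by -1.53 (adjusted p = 0.0107). The other 3 that fell were Marcksl1, Lcmt1, which methylates the PP2A catalytic subunit, and Dusp28. Those that rose were Nras, Pkig, another PKA inhibitor gene, Stk40 and Grk6, a kinase of activated receptors. Nras and Pkig were highest of the 6 libraries in the Input 3 left out, at 69.3 and 257 TPM. Over all 6 libraries, every IP value of Pkia and Gap43 lay below every Input value relative to the median gene, at 10.2, 35.4 and 33.5 TPM against 92.7, 104 and 43.1 TPM for Pkia.

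The relative difference of a member went with the base composition of its transcript. Across the 105 members the correlation with the GC content of the longest transcript was r = 0.45 (Spearman rho 0.39), and across 5534 genes of the table r = 0.30. These were 0.13 and 0.09 without IP 1 and Input 3. With transcript length the members' difference correlated at r = -0.10 over all libraries and at r = 0.29 (rho 0.30) without those 2, where the value over all genes was r = 0.15 (rho 0.29). Both members called in that reading, Mapk8ip2 and Prkar2a, have transcripts of 5558 and 4965 bases. Members with all IP above all Input had a median GC of 54.5%, those with all IP below 48.2% and the 82 others 53.4%. The departure of IP 1 from the other IP libraries correlated with GC at 0.45 and with transcript length at -0.42 over the members. The points share their 6 libraries and are not independent, so no p is given, and the part of GC content in any single difference was not tested. Map2k2 and Map2k1 have 60.4% and 51.2% GC. Ppp1cc, the PP1 catalytic gene above 0, has 48.7% GC. It lies below Ppp1ca, at 56.1%, and above Ppp1cb, at 40.8%.

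**Figure D4:**
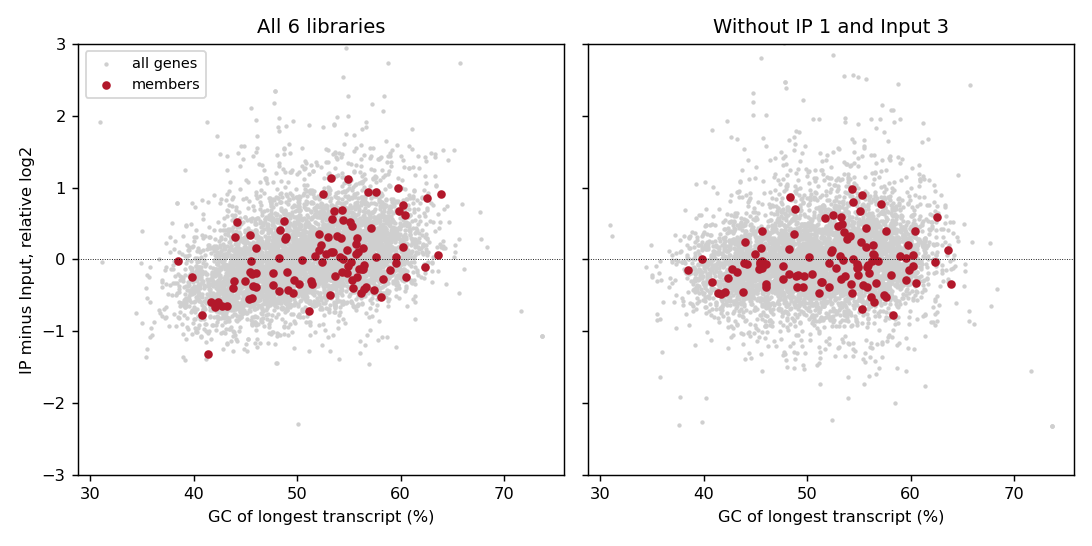
Relative log2 difference of IP from Input against the GC content of the longest GENCODE transcript, in percent, for all genes (grey) and the 105 members (red), over all 6 libraries (left) and without IP 1 and Input 3 (right). The cloud of members tilts upward on the left (r = 0.45) and little on the right (r = 0.13); 15 genes on the left and 19 on the right lie outside the axis limit of 3 log2 units and are not drawn.

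Markers of the tissue and of other cells moved with the libraries as well. Of 8 markers of oculomotor and Edinger-Westphal neurons 7 had values, and Chat, Isl1, Calca and Calcb lay higher in every IP library than in every Input relative to the median gene. The neuropeptide genes Cartpt and Ucn did not, at -0.34 and -0.13, and without IP 1 and Input 3 limma called 5 of the 7 higher and these 2 lower (-1.07 and -0.90, adjusted p = 0.0146 and 0.0407). All 8 general neuronal markers had values, with 5 above 0 and 3 below. Their median was 0.18, or 0.03 without IP 1 and Input 3, where limma called 1 of them higher, Nefl (1.61). Of 4 markers of excitatory forebrain neurons 0 had values. The 6 oligodendrocyte markers with values of 8 summed to between 365 and 4437 TPM in IP and between 536 and 4877 TPM in Input, with the lowest sum of each group in IP 1 and Input 3. The 4 astrocyte markers with values of 8 summed to between 661 and 1920 TPM in IP and between 686 and 3585 TPM in Input. The median relative difference of the astrocyte markers was -0.49, with all 4 below 0, and -0.87 without IP 1 and Input 3. In that reading limma called 2 of them lower, Agt (-1.24) and Ntsr2 (-1.23). For the oligodendrocyte markers the median was -0.34, with 2 above 0 and 4 below, and -0.52 in the second reading. There limma called 1 of them lower, Mal (-1.06). Of 8 markers each, microglia had 1 with a value and endothelium 2. The endothelial pair summed to 97.2, 453 and 93.3 TPM in IP and 71.0, 78.4 and 32.1 TPM in Input. Ly6c1 lay higher in every IP library, by 1.92, and by 2.22 (adjusted p = 0.0343) without IP 1 and Input 3, and Ly6a differed by 1.45. The part of these cells in the differences of the kinase, phosphatase and calmodulin genes was not tested.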

How the data were processed

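RNA of 3 IP and 3 Input libraries was sequenced, with libraries made with a Nextera kit per the labels' protocols. The authors deposited TPM, per the file headers, a unit scaled for transcript length and library size; RSEM, DESeq and mm10 are named in the submitters' processing notes without versions, and no source used here names the aligner. TPM keep no depth, so the number of reads behind a value is unknown, and no interval or floor is given.

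TPM were transformed to log2(TPM + 1), centred on each library's median over all 5538 genes, and compared with group as the only term by limma 3.58.1 in R 4.3.3 (lmFit, eBayes with trend), two-sided, with p-values adjusted by Benjamini and Hochberg's method over the whole table at a threshold of 0.05. The script was tested on simulated data. Shares were compared with exact two-sided permutation tests. Replicates are pools of 4 to 5 mice. The limma p-values rest on the spread between libraries of a group, with variances moderated over all genes. This spread cannot separate differences between pools from those of library preparation. Fold changes on this scale understate the change of low genes. Positions, GC content and coding sequences are from GENCODE vM21 (GRCm38), which matched all 105 members and gave GC for 5534 genes.

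Named genes are all calmodulin, CaMKII, calcineurin, PKA, GSK3 and AKT genes, the 3 most abundant of each other family, the 8 highest and 8 lowest differences, genes called under any alternative listed below, and up to 8 in each direction whose groups do not overlap; some of these results are not reported here. The members and lists were chosen with earlier results of these data known. Alternatives were no centring, quantile normalization, a pseudocount of 0.1, a mean TPM of at least 20, a block for the replicate number, and fits without single libraries or without IP 1 and Input 3.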

Additional observations from a re-analysis of the deposited data

How the results depend on the processing

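The genes called over the whole table numbered 17 without Input 3 (0 to 17 with single libraries left out), 347 without IP 1 and Input 3 together and 1057 without both and with no centring, a setting added after seeing the data; members called numbered 0, 2 and 11. Members with all IP above all Input numbered 0 with no centring, 10 to 21 with single libraries left out and 24 without both, where fewer libraries make such an order easier to meet. Of all 5538 genes, 94, 504 to 1005 and 1393 did so in these settings. Members with all IP below numbered 4, 16 to 25 and 32 in the same settings, beside 344, 691 to 1117 and 1745 of all genes. Without both and with no centring, 69 members and 3124 of 5538 genes lay below, and 8 members and 501 genes above. The median of AMPK was 0.00 (-0.0041) in that last setting, that of MAP2K, MAP3K and MAP4K was 0.017 over genes with at least 20 TPM on average, and that of PP4, PP5 and PP6 was 0.10 without both, 0.14 also with no centring and -0.030 to 0.19 with single libraries left out. The calmodulin median ran from -0.72 to 0.29 with single libraries left out. Prkaca (-0.22) and Camk2n2 (-0.35, and -0.31 with no centring) changed sign without IP 1 and Input 3, as did Csnk2b (-0.28, and -0.24 with no centring). With the replicate number as a block, limma called 0 genes (smallest adjusted p 0.269, 185 and 137 genes higher and lower at an unadjusted 0.05) and 0 members. The labels do not say whether equal numbers mark the same tissue pool. Deviations from the group means correlated at -0.10, 0.25 and -0.17 for equal numbers, and IP 1 went best with Input 3 (0.19). The highest value of all was that of IP 2 with Input 2. With 3 libraries a group, of which IP 1 and Input 3 stood apart, these values cannot decide whether the libraries are paired. Apart from leaving out Input 3, alone or with IP 1, each alternative called 0 genes, and the causes were not tested. Read depth is unknown, so what it limits cannot be given.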
